A study of Mus musculus with 6 samples.

Results

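Respiratory complex I was followed through every row of the deposited table whose gene symbol begins with Nduf, leaving out symbols that contain "-ps". This gave 49 of the 55367 gene symbols. Of these, 41 are named as subunits and 8 (Ndufaf1 to Ndufaf8) as assembly factors. The 41 comprised 36 protein-coding complex I subunits, Ndufa4 (named for complex I but assigned to cytochrome c oxidase, complex IV) with its paralog Ndufa4l2, and 3 rows that GENCODE M21 annotates as processed pseudogenes (Ndufa11b, Ndufb4c and Ndufs6b). The name rule dropped 4 rows, Ndufa12-ps, Ndufab1-ps, Ndufb1-ps and Ndufs5-ps.

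The 6 libraries were made by Smart-seq2, which copies polyadenylated RNA along its length and amplifies it by PCR, from tdTomato-positive neurons sorted by flow cytometry from the hippocampal dentate gyrus (DG) of TRAP2;Ai9 mice. These mice carry Fos-iCreERT2 and Rosa26-LSL-tdTomato, so that cells expressing the activity gene Fos while tamoxifen is present become permanently red whatever their cell type. Both groups had gone through learned helplessness (LH+), a procedure based on inescapable stress, and the red cells had been labelled in connection with it. The 3 Run libraries came from mice given 28 days of voluntary running and the 3 NR libraries from mice without running, all in 1 batch per the labels. Strain, age, sex, and the numbers of animals and of cells per library are not given in the sources used here. Nothing says that the libraries of a group came from separate animals, so a p-value sets a difference against library-to-library spread that may be purely technical.

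Complex I is the entry point of the mitochondrial respiratory chain: it oxidises NADH, passes the electrons to ubiquinone and pumps protons across the inner membrane. A matrix arm holds the flavin and iron-sulfur clusters and a membrane arm holds the proton pumps. Its catalytic core is divided between nuclear genes, for the matrix arm, and mitochondrial genes, for the membrane arm, while many accessory subunits surround the core and assembly factors help build the complex without staying in it. Neurons spend much of their ATP on ion pumping and synaptic activity and depend on oxidative phosphorylation for it.

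The libraries held 5426 to 7355 genes at 1 FPKM (fragments scaled to transcript length and to the mapped fragments of the library) or more. The FPKM values carry no read totals, so sequencing depth is unknown. Of 4 defining markers of dentate granule neurons (Prox1, Calb1, C1ql2 and Rbfox3), none reached 1 FPKM in all 6 libraries; their summed level was 39.7 to 178 FPKM in Run and 0.285 to 151 FPKM in NR, and in NR replicate 1 Calb1, C1ql2 and Rbfox3 were listed at 0. Astrocyte markers were found throughout, 9 of 10 at 1 FPKM or more in all 6 libraries, with summed levels of 2842 to 5553 FPKM in Run and 2700 to 4883 FPKM in NR. Oligodendrocyte (3 of 8), endothelium (3 of 6) and mural (3 of 5) markers also included some at 1 FPKM or more in all 6. Their summed levels were 183 to 898, 774 to 1293 and 316.5 to 743 FPKM in Run. In NR they were 257 to 1473, 783 to 2001 and 489 to 1438 FPKM. Neuronal transcripts were also found. Of 7 immature granule neuron markers, 3 were at 1 FPKM or more in all 6 libraries. That list summed to 529 to 1084 FPKM in Run and 204 to 631 FPKM in NR. A wider list of 10 granule neuron markers, which includes the 4 defining ones, held 1 such gene, Snap25, at 169 to 454 FPKM. The part of cell composition in the values below was not tested, and fewer cells of a type and less RNA per cell cannot be told apart.

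Complex I transcripts were among the better covered in these libraries. The median of the 49 members' mean levels was 122 FPKM, and that of the 46 members tested was 124 FPKM, against 20.2 FPKM over all 6155 tested genes. Of the 36 protein-coding subunits, 26 (72.2%) stood at 1 FPKM or more in all 6 libraries, against 28.4% of all tested genes, a set that needed 1 FPKM in only 3 libraries to enter the test. The 8 assembly factors were much sparser, with Ndufaf8 alone at 1 FPKM or more in all 6. The whole list of 49 held 30 members at 1 FPKM or more throughout and 19 that fell below it somewhere.

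**Figure D1:**
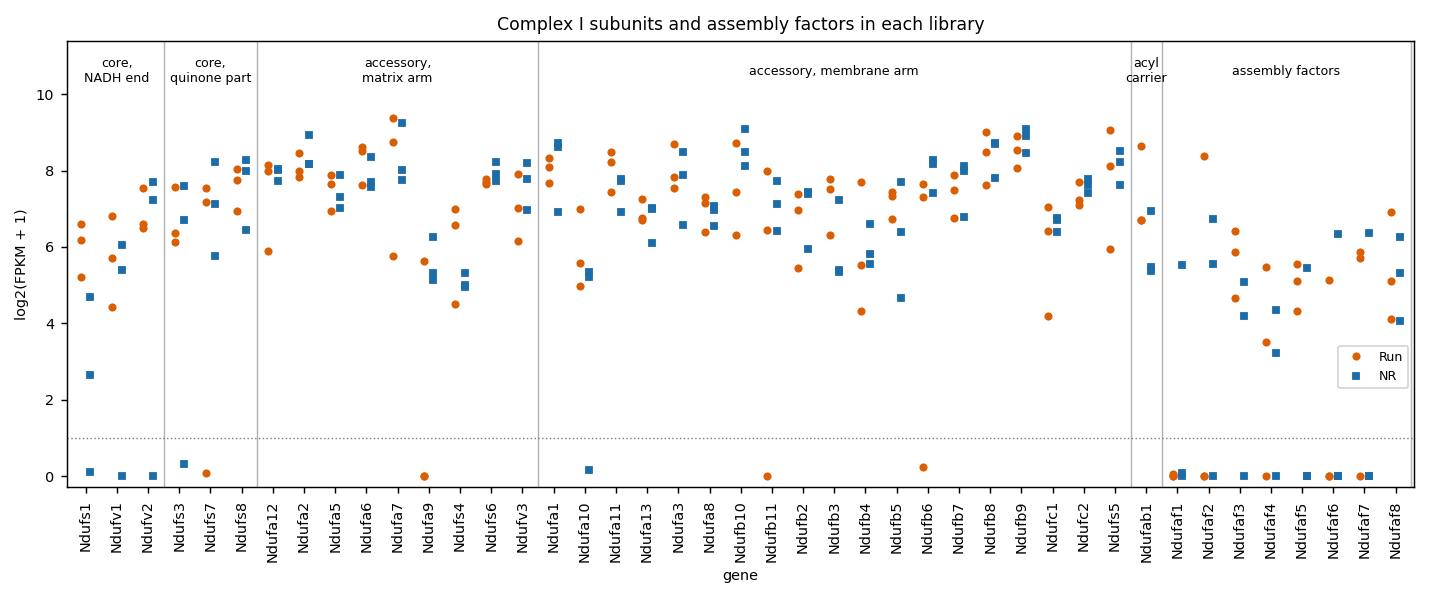
Level of 35 protein-coding subunits and the 8 assembly factors in each library, as log2(FPKM + 1) on the vertical axis, with genes grouped by role along the horizontal axis. Orange circles are the 3 Run libraries and blue squares the 3 NR libraries, and the dotted line marks 1 FPKM. Of the 35 subunits drawn, 26 lie above the line in all 6 libraries, and of the 8 assembly factors only Ndufaf8 does.

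Running was set against no running to ask whether complex I transcripts differed between the groups. No member passed the test. In limma on log2(FPKM + 1), p-values being adjusted by Benjamini-Hochberg over the 6155 genes tested, 0 genes had an adjusted p under 0.05 (0.0%), and 0 of the 46 tested members did. At an unadjusted p under 0.05 there was 1 member (2.17%), Ndufs1, higher in Run, against 304 genes (4.94%), of which 151 (2.45%) were higher and 153 (2.49%) lower in Run. Run and NR values did not overlap for 1 member (2.17%), again Ndufs1, with Run above. Over all tested genes this held for 551 (8.95%), 293 with Run above (4.76%) and 258 with Run below (4.19%). Among the 46 tested members 23 log2 differences, Run minus NR, were positive and 23 negative. Their median was -0.02, beside -0.03 over all tested genes. Ndufa11b, Ndufaf1 and Ndufaf6 did not reach 1 FPKM in 3 libraries and were not tested, and no member entered the test through 1 group alone.

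The 3 core subunits of the NADH-oxidising end all had positive log2 differences, with a median of 1.90. Ndufs1 carries iron-sulfur clusters that lead electrons away from the flavin. It had 36.1, 96.6 and 71.3 FPKM in Run replicates 1, 2 and 3, against 24.7, 5.31 and 0.0679 FPKM in NR replicates 1, 2 and 3 (the replicate order used for all values here). All 3 Run libraries lay above all 3 NR libraries. The log2 difference was 3.52 ± 1.39 (SE), with a limma unadjusted p of 0.0389 and an adjusted p of 0.956 (0.569 to 0.9998 over the other settings tried). The log2 difference was 2.33 without NR replicate 3, 4.62 without NR replicate 1 and 2.07 with a pseudocount of 10. The unadjusted limma p was 0.0133 without NR replicate 1 and 0.0564 to 0.110 without any other single library. Ndufs1 lies on the minus strand at chr1:63143596-63176833 (mm10), where its exons share bases with Eef1b2, a translation elongation factor gene, and with Ino80dos, both on the opposite strand. Eef1b2 had 149, 22.7 and 102 FPKM in Run and 71.0, 114 and 41.7 FPKM in NR. Smart-seq2 does not mark the strand, so reads from the shared bases cannot be told apart.

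Ndufv1, which binds NADH and the flavin, had 20.6, 51.7 and 111 FPKM in Run and 65.2 and 41.4 FPKM in NR replicates 1 and 2, and was listed at 0 in NR replicate 3. Ndufv2, its iron-sulfur partner, had 96.0, 186 and 89.1 FPKM in Run and 207 and 150.0 FPKM in the same pair of NR libraries, and was likewise listed at 0 in NR replicate 3. In both genes the Run values overlapped those of the other NR libraries, and NR replicate 3 alone was low. Their log2 differences were 1.83 ± 1.74 and 1.90 ± 2.00 (SE, limma adjusted p = 0.978 for both), and without NR replicate 3 they were -0.08 and -0.59.

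The core subunits around the ubiquinone site were as uneven. Ndufs3, a structural core subunit, had 190.4, 69.1 and 81.9 FPKM in Run, against 103, 191.5 and 0.252 FPKM in NR. It was low in NR replicate 3 alone, and its log2 difference of 1.82 ± 1.87 (SE) became -0.45 without that library.

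Ndufs7, which holds the last iron-sulfur cluster before ubiquinone, went the other way, with 186, 145 and 0.0653 FPKM in Run and 299, 139 and 53.4 FPKM in NR. Run replicate 3 was the low library here, and the log2 difference of -2.10 ± 2.00 (SE) became 0.33 without it. Ndufs8, also an iron-sulfur protein, was the core subunit found in every library. It had 213, 261 and 122 FPKM in Run and 254, 85.7 and 309 FPKM in NR, with means of 199 ± 70.8 and 216 ± 116.5 FPKM (SD, n = 3 each). The groups overlapped and the log2 difference was 0.00 ± 0.63 (SE).

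Across the 7 nuclear core subunits, 6 log2 differences were positive and 1 was negative, with a median of 1.83 (5 and 2 when libraries were scaled to equal sums or quantile-normalised or with a pseudocount of 10, since Ndufs8 lies at 0.00). The median was 0.86 with a pseudocount of 10 and 2.92 with 0.1. Without NR replicate 3, in which Ndufs1, Ndufs3, Ndufv1 and Ndufv2 were all below 1 FPKM, 3 were positive and 4 negative, with a median of -0.08. Those 4 were the only subunits below 1 FPKM in that library, and all 29 accessory subunits stood above it there. Of the defining granule neuron markers, Prox1 was at 0.417 FPKM there, Calb1 and Rbfox3 were listed at 0, and C1ql2 was at 28.4 FPKM. In NR replicate 1 Prox1 was at 0.285 FPKM, the other 3 defining markers were listed at 0, and all 7 core subunits were at 24.7 FPKM or more. The part of cell composition in the core subunits' low values was not tested.

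The accessory subunits of the matrix arm showed no common direction, with 3 positive and 6 negative log2 differences among 9 and a median of -0.32. The largest was that of Ndufa9, a subunit at the joint between the arms. It had 48.3 FPKM in Run replicate 1 and was listed at 0 in Run replicates 2 and 3, against 75.9, 38.7 and 33.9 FPKM in NR. Run replicate 1 lay within the NR values, so the groups overlapped, and the log2 difference was -3.69 ± 1.77 (SE, limma adjusted p = 0.978). It was -5.57 without Run replicate 1, -2.76 without Run replicate 2 or 3, and -1.66 with a pseudocount of 10. It was the single matrix-arm accessory subunit below 1 FPKM in any library.

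The steadiest subunit by residual SD was Ndufs6, a zinc-binding protein added late in assembly. It had 200, 206 and 220 FPKM in Run and 300.3, 212 and 240.3 FPKM in NR, with means of 209 ± 10.5 and 251 ± 45.2 FPKM (SD, n = 3 each). The log2 difference was -0.25 ± 0.38 (SE), and its residual SD of 0.187 on the log2 scale compared with a median of 0.937 over the 36 subunits and 1.98 over all tested genes.

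Ndufa7 reached the highest value of any complex I subunit, 666 FPKM in Run replicate 1, with 53.5 and 429 FPKM in the other Run libraries and 605, 216 and 258 FPKM in NR. Run replicate 2 was the low library. Ndufa6, a LYR-motif protein that docks the acyl carrier protein, averaged 318 ± 106 FPKM in Run and 241 ± 75.6 FPKM in NR (SD, n = 3 each). Ndufa12, a paralog of the assembly factor Ndufaf2, averaged 199 ± 123 FPKM in Run, with Run replicate 1 lowest at 57.9 FPKM, and 243 ± 28.7 FPKM in NR. Ndufa2, Ndufa5 and Ndufv3 averaged 278 ± 66.5, 185 ± 56.9 and 146 ± 85.4 FPKM in Run, beside 353 ± 115 FPKM, 174 ± 56.2 FPKM and 211.5 ± 83.7 FPKM in NR. The groups overlapped for each of these genes. Ndufs4, whose loss in mice causes a Leigh-like brain disease, was the remaining member, at 21.8 to 126 FPKM in Run and 29.7 to 39.0 FPKM in NR.

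**Figure D2:**
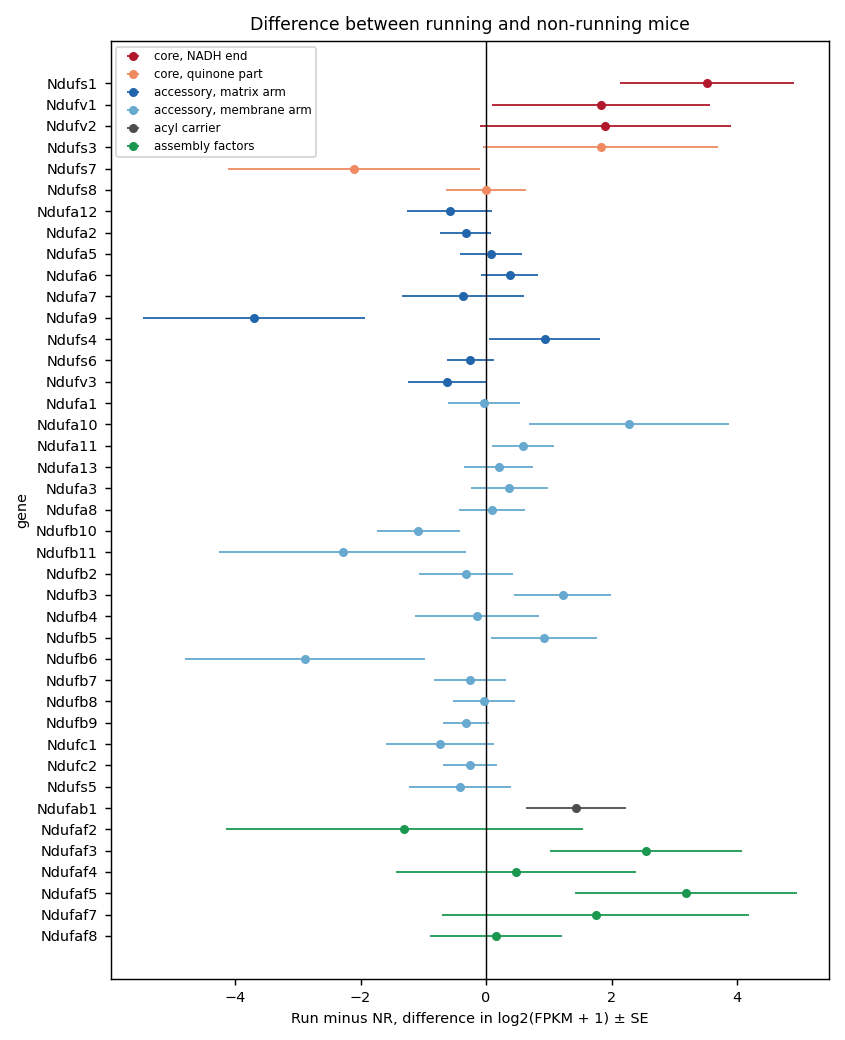
Difference between groups for 35 subunits and the 6 tested assembly factors, Run minus NR in log2(FPKM + 1) on the horizontal axis, with genes down the vertical axis coloured by role. Points are limma estimates and lines their SE. Ndufs1 at 3.52 and Ndufa9 at -3.69 lie farthest out, and no gene passed the adjusted threshold.

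The membrane arm held 19 accessory subunits, with 7 positive and 12 negative log2 differences and a median of -0.14. Ndufb10, a disulfide-bonded subunit facing the intermembrane space, had 423, 78.1 and 173 FPKM in Run and 545, 356 and 279 FPKM in NR. Run replicates 2 and 3 lay below all NR libraries and Run replicate 1 among them. The log2 difference was -1.08 ± 0.67 (SE, limma adjusted p = 0.978), and it was -1.70 without Run replicate 1 and -0.48 without Run replicate 2. Ndufb3, a small membrane-spanning subunit, had 217.5, 78.6 and 183 FPKM in Run and 40.8, 149 and 39.5 FPKM in NR. NR replicates 1 and 3 lay below every Run library, and the log2 difference was 1.22 ± 0.77 (SE), or 0.90 to 1.84 with a library left out.

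In Ndufb6, Ndufb11 and Ndufa10, 1 library each stood apart. Ndufb6 had 0.187, 200 and 158 FPKM in Run and 288, 308 and 169 FPKM in NR, and its log2 difference of -2.88 ± 1.91 (SE) became -0.47 without Run replicate 1. Smim27, on the opposite strand, shares exon bases with it. Ndufb11, an X-linked subunit, had 86.0 and 253 FPKM in Run replicates 1 and 2 and was listed at 0 in Run replicate 3, beside 210, 139 and 85.1 FPKM in NR. Ndufa10, a protein related to nucleoside kinases, had 127, 30.4 and 46.6 FPKM in Run and 0.123, 35.9 and 39.7 FPKM in NR. Its log2 difference of 2.27 ± 1.59 (SE) became 0.57 without NR replicate 1.

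The remaining membrane-arm subunits were present in all 6 libraries and overlapped between the groups. Ndufb9, another LYR-motif protein, was the highest of the complex I subunits on average, with 368, 267 and 477 FPKM in Run and 353, 543 and 480.5 FPKM in NR. Ndufb8 averaged 356 ± 159 FPKM in Run and 354 ± 113 FPKM in NR (SD, n = 3 each). Its log2 difference was -0.04 ± 0.49 (SE). Ndufs5, with 275, 60.4 and 532 FPKM in Run and 365, 194 and 300.1 FPKM in NR, was lowest in Run replicate 2. Ndufa1, Ndufa3, Ndufa11, Ndufb7 and Ndufc2 had means of 164.5 to 277.5 FPKM in Run and 183 to 309.5 FPKM in NR. Their log2 differences were -0.04, 0.37, 0.58, -0.26 and -0.26, with SEs of 0.43 to 0.62. The other 6, Ndufa8, Ndufa13, Ndufb2, Ndufb4, Ndufb5 and Ndufc1, lay between 17.3 and 208 FPKM over all libraries.

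Ndufab1, the mitochondrial acyl carrier protein that serves fatty acid synthesis and sits in both arms, had 104, 104 and 402 FPKM in Run and 40.7, 123 and 43.3 FPKM in NR. Run replicate 3 was high, and NR replicate 2 lay above the other Run libraries. The log2 difference was 1.43 ± 0.80 (SE, limma adjusted p = 0.978), and 0.78 without Run replicate 3. Ndufa4 had the highest mean of all members, 500.8 FPKM, with 570.3, 197 and 817 FPKM in Run and 367, 511 and 543 FPKM in NR. Its Run libraries spanned the NR range on both sides, and the log2 difference was -0.05 ± 0.56 (SE). Ndufa4l2 was listed at 0 in Run replicates 2 and 3 and in NR replicate 1, with 78.8 FPKM in Run replicate 1 and 52.1 and 34.0 FPKM in NR replicates 2 and 3.

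The assembly factors gave 5 positive and 1 negative log2 differences among the 6 tested, with a median of 1.11, and 0 passed the test. Without the filter on low values all 8 had a difference, 5 positive and 3 negative, with a median of 0.32. Without NR replicate 3 there were 3 of each and the median was 0.14. Ndufaf5, which hydroxylates an arginine of Ndufs7, had 19.0, 33.2 and 46.2 FPKM in Run. It was listed at 0 in NR replicates 1 and 2 and had 42.5 FPKM in NR replicate 3. The log2 difference was 3.18 ± 1.77 (SE, limma adjusted p = 0.978), 2.27 without NR replicate 1 or 2 and 4.99 without NR replicate 3. Ndufaf8, the small partner that stabilises Ndufaf5, had 33.4, 16.3 and 119 FPKM in Run and 38.8, 75.3 and 15.8 FPKM in NR, with means of 56.3 ± 55.1 and 43.3 ± 30.0 FPKM (SD, n = 3 each) and overlapping groups.

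Ndufaf3 and Ndufaf4 act together in building the ubiquinone-reducing part. Ndufaf3 had 57.0, 84.1 and 24.2 FPKM in Run and 33.0 and 17.4 FPKM in NR replicates 1 and 2, and was listed at 0 in NR replicate 3. Its log2 difference was 2.55 ± 1.53 (SE), and 1.00 without NR replicate 3. Its exons share bases with Impdh2 on the opposite strand. Ndufaf4 had 43.2 and 10.5 FPKM in Run replicates 1 and 2 and 19.3 and 8.34 FPKM in NR replicates 1 and 2, and was listed at 0 in replicate 3 of both groups.

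Ndufaf7, a mitochondrial methyltransferase, had 51.6 and 57.9 FPKM in Run replicates 1 and 2 and 81.5 FPKM in NR replicate 2, and was listed at 0 elsewhere. Ndufaf2, which holds the docking site of the NADH-oxidising module until Ndufa12 takes its place, had 332 FPKM in Run replicate 3 and 104 and 46.3 FPKM in NR replicates 1 and 2, and was listed at 0 elsewhere. Each was thus listed at 0 in 3 of the 6 libraries and at 46.3 FPKM or more in the others. Ndufaf1, part of the assembly complex for the membrane arm, reached 1 FPKM in NR replicate 2 alone, at 44.9 FPKM. Ndufaf6, an early assembly factor, had 34.0 FPKM in Run replicate 1 and 80.5 FPKM in NR replicate 1 and was listed at 0 in the other 4.

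Summed over genes, the 36 subunits came to 6735, 5213 and 7105 FPKM in Run and 7128, 6032 and 6198 FPKM in NR. The means were 6351 ± 1003 and 6453 ± 591 FPKM (SD, n = 3 each), 1.09% to 1.46% of a library's summed FPKM, and the Run range enclosed all but the highest NR library. The 8 assembly factors came to 238, 202 and 521 FPKM in Run and 276, 274 and 58.3 FPKM in NR. Ndufaf2 made up 332 FPKM of the sum in Run replicate 3, and NR replicate 3 held 2 assembly factors at 1 FPKM or more, against 4 to 6 in the other libraries. The difference of the mean log2 sums, 0.84, became 0.09 without NR replicate 3 and 0.42 without Run replicate 3.

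The 7 subunits encoded in mitochondrial DNA, which form the proton-pumping core of the membrane arm, were at 55.7 FPKM or more in every library. They summed to 12452, 16013 and 10383 FPKM in Run and 11818, 16136 and 10614 FPKM in NR, with means of 12949 ± 2848 and 12856 ± 2904 FPKM (SD, n = 3 each). Their ratio to the sum of the nuclear subunits was 1.85, 3.07 and 1.46 in Run and 1.66, 2.68 and 1.71 in NR, so replicate 2 was highest in both groups. Of the 7, 4 log2 differences were positive and 3 negative, and 0 passed the test. Mt-Nd4 averaged 1713 ± 517 FPKM in Run and 2482 ± 656 FPKM in NR, and mt-Nd5 averaged 1340 ± 481 FPKM in Run and 898.5 ± 410.5 FPKM in NR (SD, n = 3 each). The groups overlapped for both, with log2 differences of -0.54 ± 0.28 and 0.61 ± 0.41 (SE, limma adjusted p = 0.978). The others were mt-Nd1 at 0.21, mt-Nd2 at 0.02, mt-Nd3 at -0.68, mt-Nd4l at -0.28 and mt-Nd6 at 0.14; mt-Nd2 turned negative when libraries were scaled to equal sums or quantile-normalised.

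**Figure D3:**
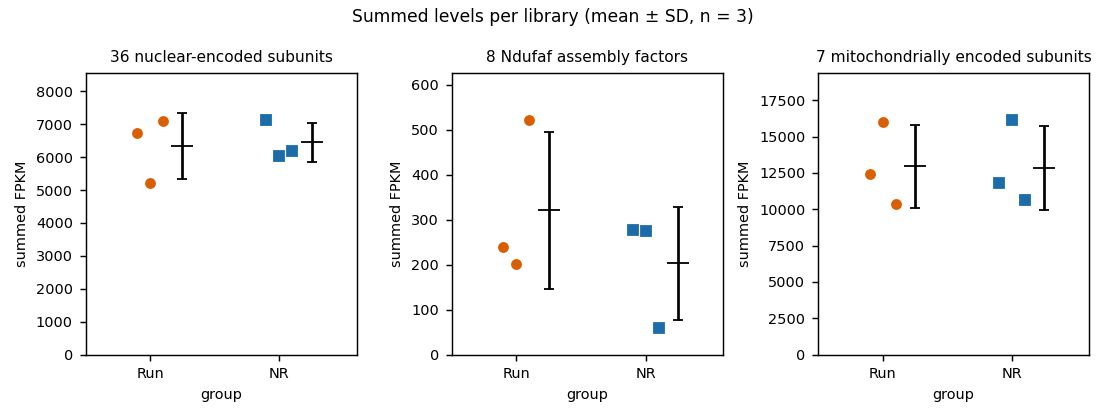
Summed FPKM per library for the 36 nuclear-encoded subunits, the 8 Ndufaf assembly factors and the 7 mitochondrially encoded subunits, with a panel and a vertical axis starting at 0 for each. Orange circles are Run and blue squares NR libraries, and horizontal bars with whiskers are the mean ± SD of 3 libraries. The groups overlap in every panel, and NR replicate 3, at 58.3 FPKM, has the lowest assembly factor sum.

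Genes of the other respiratory complexes were counted beside these. None passed the test in either direction: 0 of 4 in complex II, 0 of 9 in complex III, 0 of 10 in complex IV and 0 of 17 in ATP synthase. Their median log2 differences were -0.23, 0.15, 0.33 and -0.06. All 40 of these genes were at 1 FPKM or more in all 6 libraries, against 26 of the 36 complex I subunits. Complexes II to IV were represented by chosen gene lists and the 36 came from a name rule, so these counts are not over like sets. The complex IV list left out Ndufa4 and Ndufa4l2, and Ndufa4l2 was listed at 0 in 3 libraries. At an unadjusted limma p under 0.05, which 4.94% of all tested genes met, there was 1 of the 40, Atp5g1, a gene for the ring subunit of ATP synthase, with 191.5, 112 and 252.5 FPKM in Run and 7.03, 133 and 8.91 FPKM in NR, at a log2 difference of 3.005 ± 1.18 (SE, limma adjusted p = 0.956). Run and NR values did not overlap, as in 8.95% of all tested genes, for Atp5md and Atp5pb, both of ATP synthase. Atp5md had 518, 359 and 581 FPKM in Run, all below the 932, 712 and 724 FPKM of NR, and Atp5pb had 274, 244 and 213 FPKM in Run, all above the 181, 127 and 149 FPKM of NR. Their log2 differences were -0.72 ± 0.31 and 0.68 ± 0.41 (SE, limma adjusted p = 0.978). Of 10 complex I assembly factors with other names, 0 were at 1 FPKM or more in all 6 libraries, 5 were tested and 0 passed. Of 5 regulators of mitochondrial gene expression, Gabpa alone reached the test, and 0 of 3 supercomplex genes passed. Of 5 genes that make or feed ubiquinone, 0 passed; Coq5, a methyltransferase of ubiquinone synthesis, had 16.0, 13.4 and 14.1 FPKM in Run and was listed at 0 in all 3 NR libraries. It entered the test through the Run libraries alone, so its test value is not given. All Run values lay above all NR values, as they do for Coq5, in 4.76% of all tested genes.

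Coverage differed between the roles. Values below 1 FPKM made up 14.3% of the core subunits' values (6 of 42), 2.87% of the accessory subunits' (5 of 174) and 41.7% of the assembly factors' (20 of 48), against 25.7% over all tested genes. The 48 values include those of Ndufaf1 and Ndufaf6, which reached 1 FPKM in only 1 and 2 libraries and were not tested. The 41.7% and the 25.7% are therefore not over like sets. The longest annotated coding transcripts had median lengths of 1623 bases for core subunits, 875 for accessory subunits and 1322 for assembly factors. Their median levels were 106, 180 and 27.6 FPKM. Over these 44 genes, which share the same 6 libraries, mean level and length had a Spearman correlation of -0.62, and FPKM already divides by length. The 27 genes found at 1 FPKM or more throughout had a median length of 861 bases and a median level of 194 FPKM. The other 17 had a median length of 1478 bases and a median level of 46.6 FPKM. How far length, level or RNA quality set the missing values was not tested.

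**Figure D4:**
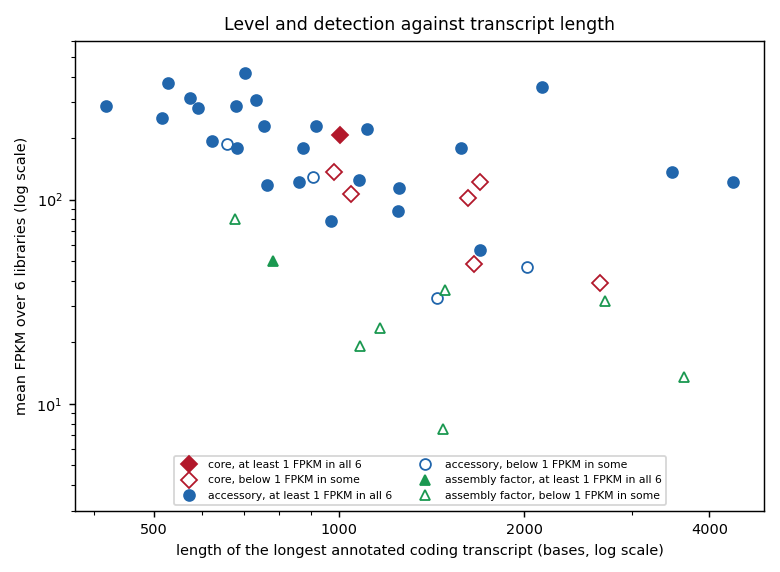
Mean level over the 6 libraries (FPKM, log scale, vertical axis) against the length of the longest annotated coding transcript (bases, log scale, horizontal axis) for 44 complex I genes. Diamonds are core subunits, circles accessory subunits and triangles assembly factors, and open symbols were below 1 FPKM in some library. Of the 7 core subunits, 6 are open, against 4 of the 29 accessory subunits.

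Several members have near-identical processed copies elsewhere in the genome, and for some of them the share of the parent gene's level varied far less than the parent gene did. The first 120 coding bases are shown for a parent and copy that are identical and for a pair that can be told apart, with differing bases in capitals. Transcripts were taken from GENCODE M21 (mm10), and the copies lie on the minus strand at chr15:73809777-73809896 (Ndufb4c) and chr7:81161624-81161743 (Ndufs6b).
Ndufb4: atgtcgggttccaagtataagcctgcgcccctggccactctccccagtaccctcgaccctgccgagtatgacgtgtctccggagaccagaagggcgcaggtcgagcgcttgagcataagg
Ndufb4c: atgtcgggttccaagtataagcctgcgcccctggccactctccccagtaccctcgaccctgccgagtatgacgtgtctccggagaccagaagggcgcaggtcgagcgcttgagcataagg
Ndufs6: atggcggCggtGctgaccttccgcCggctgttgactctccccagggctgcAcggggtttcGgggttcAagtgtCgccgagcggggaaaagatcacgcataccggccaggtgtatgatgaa
Ndufs6b: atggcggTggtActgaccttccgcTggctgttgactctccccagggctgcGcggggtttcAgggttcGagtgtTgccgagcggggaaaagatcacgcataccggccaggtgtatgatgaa
Over its full 390 bases Ndufb4c was 100% identical to the Ndufb4 transcript, which covers the whole coding sequence. The Ndufs6b sequence differed from Ndufs6 at 7 of the bases shown and was 95.8% identical over 287 aligned bases.

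Ndufb4, a membrane-arm subunit, had 208, 45.1 and 19.1 FPKM in Run and 55.6, 96.2 and 46.0 FPKM in NR. Ndufb4c had 68.0, 15.3 and 7.74 FPKM in Run and 17.3, 30.2 and 12.2 FPKM in NR, which was 26.4% to 40.5% of Ndufb4 in each library while Ndufb4 itself varied 10.9-fold. Reads from the shared bases cannot be assigned to either row. Ndufs5-ps stood at 25.5% to 28.6% of Ndufs5, which varied 8.81-fold. Ndufs5-ps and Ndufa12-ps are not in GENCODE M21 and were not aligned, so they count as copies by name only. Ndufs6b was 0.878% to 1.31% of Ndufs6, and Ndufa11b, 93.9% identical to Ndufa11 over 313 bases, was 0.102% to 0.450% of it. The share for Ndufa11b varied 4.404-fold, more than Ndufa11 itself (3.02-fold), and Ndufa11b was at 0.878 FPKM or less in every library. The share for Ndufs6b varied 1.496-fold, beside 1.532-fold for Ndufb4c. Ndufs6 itself varied only 1.505-fold, so a share that follows the parent gene cannot be told from steady levels of both. Adding the copies to their parents changed no call.

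**Figure D5:**
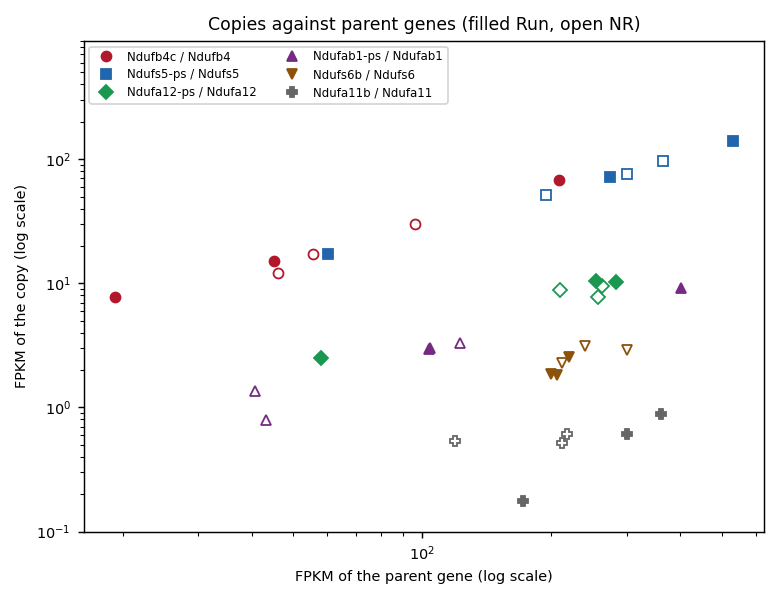
FPKM of 6 copies (log scale, vertical axis) against FPKM of their parent genes (log scale, horizontal axis), with a point for each library. Ndufs5-ps and Ndufa12-ps count as copies by name only. Filled symbols are Run and open symbols NR, and each colour and shape is a pair. Ndufb4c and Ndufs5-ps lie nearest to their parents, at 26.4% to 40.5% and 25.5% to 28.6%.

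Ndufb1-ps, dropped by the name rule, is listed by RefSeq as the protein-coding gene Ndufb1. It had 144, 65.1 and 56.9 FPKM in Run and 98.3, 100.3 and 107 FPKM in NR, with a log2 difference of -0.32 ± 0.60 (SE, limma adjusted p = 0.981). The groups overlapped, and the NR libraries lay close together.

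Promoters of 40 of the 46 protein-coding members were matched in RefSeq (GRCm38.p6), in windows of 250 bases before to 50 after each start, and both strands were searched. NRF-1 is a transcription factor known to act on nuclear genes of the respiratory chain. Of the 40 genes, 5 (12.5%) held the NRF-1 core letters GCATGCGC, against 3.05% of 27025 genes. Those were Ndufa6, Ndufa8, Ndufa11, Ndufaf4 and Ndufaf5. The YY1 letters AAGATGGCG stood in 6 (15.0%), against 1.64% of all genes, the ETS letters CCGGAAG in 6 (15.0%), against 9.93%, and the TATA letters TATAAA in 4 (10%), against 15.7%. Windows of the members held a median of 20.5 CpG, against 7.0 over all windows. The part of base composition in these shares was not tested. The 250 bases before the start are shown for the 3 subunits with the NRF-1 letters, because all 3 were found in every library. Capitals mark the letters on the strand shown only. In Ndufa11 an overlapping match on the other strand is not marked.
Ndufa6, chr15:82354292-82354541, minus strand: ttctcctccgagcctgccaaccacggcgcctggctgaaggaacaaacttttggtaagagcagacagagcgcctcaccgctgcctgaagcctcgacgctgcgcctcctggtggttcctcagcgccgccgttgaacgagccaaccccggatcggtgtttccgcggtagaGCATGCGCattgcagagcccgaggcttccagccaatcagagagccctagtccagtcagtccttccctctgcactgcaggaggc
Ndufa8, chr2:36049339-36049588, minus strand: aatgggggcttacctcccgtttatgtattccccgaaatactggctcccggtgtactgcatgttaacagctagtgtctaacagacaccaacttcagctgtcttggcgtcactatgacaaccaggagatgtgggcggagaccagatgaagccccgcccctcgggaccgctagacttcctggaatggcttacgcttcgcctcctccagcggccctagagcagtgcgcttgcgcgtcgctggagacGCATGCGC
Ndufa11, chr17:56717512-56717761, plus strand: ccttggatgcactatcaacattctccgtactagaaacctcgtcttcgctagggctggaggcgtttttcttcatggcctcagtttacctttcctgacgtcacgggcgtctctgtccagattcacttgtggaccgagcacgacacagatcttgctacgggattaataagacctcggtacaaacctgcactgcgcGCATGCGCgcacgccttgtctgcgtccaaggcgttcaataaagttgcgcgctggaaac
The letters in capitals began 83, 8 and 58 bases before the start. Ndufa6 had 364.5, 197 and 392 FPKM in Run and 188, 208 and 328 FPKM in NR. Ndufa8 had 82.7, 141.5 and 158 FPKM in Run and 92.3, 124 and 134 FPKM in NR. Ndufa11 had 172, 360 and 301 FPKM in Run and 119, 218 and 212 FPKM in NR. All 3 overlapped between the groups, with log2 differences of 0.38 ± 0.46, 0.09 ± 0.53 and 0.58 ± 0.49 (SE). A match of letters is a description of the sequence and not evidence of binding.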

How the data were processed

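RNA was measured in 6 Smart-seq2 libraries, 3 Run and 3 NR. The authors deposited FPKM values, 1 column for each library. Trimmomatic 0.39, STAR 2.7.5c, StringTie 2.1.7 and build mm10 are named, per the submitters' processing notes. What each tool did, the annotation and the use of strand are not given in the sources used here. These FPKM values hold no depth: at the best-fitting step for 1 read, 8.14% to 10.2% of low values lay within 5% of whole multiples, so no count test was run. No pair of libraries shared its values.

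Genes at 1 FPKM or more in at least 3 of 6 libraries (6155) were tested on log2(FPKM + 1), a scale that understates changes of low genes, by the trended, 2-sided test of limma 3.58.1 (R 4.3.3) without covariates. Adjusted p-values are Benjamini-Hochberg values over all 6155 genes, with 0.05 as the threshold. Each difference is Run minus NR. The code was tested on simulated data. Means ± SD are given for genes at 1 FPKM or more in all 6 libraries, and each library's value for the others. Coordinates and lengths come from GENCODE M21 and promoters from RefSeq GRCm38.p6. Copies found in GENCODE M21 were aligned with blastn.

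Members and lists were chosen with earlier results of these data known. Members named with values were the 20 highest by mean, those not overlapping between groups, the 10 with the smallest p, the core subunits and all assembly factors, plus the 7 mitochondrial subunits. Ndufa4l2, Ndufa8, Ndufb1-ps, Ndufb4, Ndufb11, Ndufs4, the copies, Atp5g1, Atp5md, Atp5pb and Coq5 were added after their values were seen. The values of 1 core subunit are not reported here by name, though it is included in the counts, medians and sums. Exons of 17 of the 46 protein-coding members share bases with a gene on the opposite strand and those of Ndufb2, Ndufb8 and Ndufb9 with a gene on the same strand. Alternatives were other pseudocounts (0.1 and 10), filters, scalings, no trend, a replicate block, each library left out and, added after the data were seen, copies summed with their parents.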

Additional observations from a re-analysis of the deposited data

How the results depend on the processing

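In the 15 other settings, 0 genes and 0 members passed the limma threshold on the adjusted p, the lowest limma adjusted p of any member being 0.407. The 1 member at an unadjusted p under 0.05 became 0 with a pseudocount of 0.1, with 1 FPKM required in all 6 libraries (which removes Ndufs1) and with the replicate block, and 0 to 2 with a library left out. Same-numbered Run and NR libraries correlated by 0.0211, 0.00416 and 0.0179, under the 0.1 that would pair them, although each correlated best with its own number; with the block mt-Nd4, lower in Run in all 3 same-numbered pairs, had an unadjusted limma p of 0.0286 (0.0956 without it; adjusted p = 0.954), and no adjusted call changed. The members' median log2 difference ranged from -0.12 (without NR replicate 3) to 0.31 (without Run replicate 2), that of the summed subunits from -0.12 to 0.10 and that of the summed assembly factors from 0.09 to 1.21 with a library left out. A pseudocount, filter or trend on the sums was not run, since sums have no such choice, nor was a block.

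Of 616 values of 42 named genes under the alternatives, 574 kept their direction and 42 turned, and 22 genes kept it in all. Dropping the trend, adding the replicate block and changing the filter cannot alter a gene's log2 difference. Adding copies to their parents cannot alter it for genes that are not among those parents. Values of these kinds were therefore among the 574 by design. Outside the left-out libraries, Ndufs8 became -0.0062 with a pseudocount of 10, -0.034 with equal sums and -0.014 with quantile normalisation, and mt-Nd2 -0.015 and -0.046 with equal sums and quantile normalisation. With a library left out, log2 differences ranged from -0.45 to 3.18 for Ndufs3, -3.40 to 0.33 for Ndufs7, -0.56 to 0.36 for Ndufs8, -0.076 to 2.95 for Ndufv1 and -0.59 to 3.26 for Ndufv2. They ranged from -0.62 to 0.28 for Ndufa1, -0.99 to 0.15 for Ndufa12, -0.16 to 0.79 for Ndufa3, -0.48 to 0.55 for Ndufa4, -0.12 to 0.35 for Ndufa5 and -1.08 to 0.72 for Ndufa7. They ranged from -0.69 to 0.053 for Ndufb7, -0.35 to 0.34 for Ndufb8, -1.10 to 0.46 for Ndufs5, -4.09 to 0.094 for Ndufaf2, -0.79 to 1.97 for Ndufaf4 and -0.60 to 0.79 for Ndufaf8. Among mitochondrial genes they ranged from -0.29 to 0.27 for mt-Nd2, -1.25 to 0.41 for mt-Nd3 and -0.067 to 0.54 for mt-Nd6. The pseudocount moved genes with values near 0: with 0.1 and 10, differences were 4.48 and 2.07 for Ndufs1, -5.89 and -1.66 for Ndufa9 and 5.36 and 1.25 for Ndufaf5, and medians were 2.92 and 0.86 for core subunits and 1.67 and 0.53 for assembly factors. The cause of the turns was not tested. Depth is unknown, and the median residual SD of the tested members, 1.04 on the log2 scale, limits what 3 libraries a group can show.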
